A study of Mus musculus with 8 samples.

Results

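The genes described here encode the proteins of the cytosolic ribosome of mouse embryonic stem cells, measured in the lines HM-1 and R1. They were chosen by symbol: Rpl or Rps followed by a digit, or Rpsa, Rplp0, Rplp1 or Rplp2, without the Rps6k kinases and without pseudogenes. The array carried 62 such genes on 94 probes, of which 38 genes had 1 probe and 24 had several. Values from 3 or more arrays in both groups were available for 58 of the 62, 34 of the large subunit and 24 of the small subunit, among 14015 features tested in all. Rpl26, Rpl36al, Rpl5 and Rpl7l1 missed that filter. Rpl32, Rpl39 and Rps19 passed it with 1 array missing. The rule also took 4 genes that are paralogs or a binding protein, Rpl22l1, Rpl39l, Rps27l and Rps19bp1. No probe was named for 27 protein-coding symbols of the rule in RefSeq, among them Rpl3, Rpl10, Rps2, Rps3 and Rps27a, and these were not analysed here.

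RNA of HM-1 and of R1 was hybridised together on each of 8 cDNA arrays with 2 colours. On 4 arrays both lines had been given nocodazole, which depolymerises microtubules and stops dividing cells in mitosis, and on 4 arrays both lines were untreated; the labels give no dose, time or passage. Organs and a pooled reference of control animals also appear in the protocols, at odds with the channel labels. HM-1 was labelled with Cy5 on nocodazole replicates 1, 2 and 3 and on untreated replicates 1 and 2, and with Cy3 on nocodazole replicate 4 and untreated replicates 3 and 4. The stated aim was to compare the expression profiles of the lines with and without the drug.

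A value is the log2 ratio between the lines on 1 array, with the array's median over all features set to 0. The labels do not state which line or dye stands on top of the ratio. Signs are therefore those of the deposited table, no line is called higher, and each comparison is also given with the sign of the 3 arrays with HM-1 in Cy3 changed, called the turned reading below. Cells with and without the drug never shared an array. Nocodazole minus untreated is thus a change in the ratio between the lines and says nothing of either line alone. A ratio holds no level, so the embryonic stem cell label could not be checked against levels of its markers, of which 11 were measured. Fewer cells and less RNA per cell cannot be told apart in such bulk samples.

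The ribosome reads messenger RNA on its small subunit and joins amino acids on its large subunit, and its proteins are built in together with the ribosomal RNAs. Cells therefore make these proteins in matched amounts, and their transcripts are among the most abundant in a dividing cell. In mammals most of these messenger RNAs start with a C followed by a run of pyrimidines, the terminal oligopyrimidine tract, through which the kinase complex mTORC1 and the protein LARP1 control how well they are translated.

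The sequences around the transcription start are shown for 6 genes whose transcripts begin with such a tract. RefSeq promoter windows (GRCm38.p6, from 250 bases before to 50 after the start) were found for 50 of the 58 genes. Capitals mark the tract that begins at the first transcribed base, and each line gives, 5′ to 3′, the 60 bases before the start and the first 20 transcribed bases. The genes were picked after their values were seen, to show a long tract (Rpl35), the target of S6 kinase (Rps6) and 4 genes whose values are described below.
Rpl35 (chr2:39005112-39005191, strand -): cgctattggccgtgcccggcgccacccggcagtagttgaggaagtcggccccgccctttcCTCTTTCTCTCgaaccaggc
Rps6 (chr4:86857348-86857427, strand -): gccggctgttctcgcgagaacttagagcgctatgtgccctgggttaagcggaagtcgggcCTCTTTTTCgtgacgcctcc
Rps15a (chr7:118116128-118116207, strand -): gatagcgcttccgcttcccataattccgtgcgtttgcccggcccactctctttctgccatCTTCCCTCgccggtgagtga
Rpl38 (chr11:114668520-114668599, strand +): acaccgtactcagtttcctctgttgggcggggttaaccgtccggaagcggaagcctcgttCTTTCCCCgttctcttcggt
Rplp2 (chr7:141447591-141447670, strand +): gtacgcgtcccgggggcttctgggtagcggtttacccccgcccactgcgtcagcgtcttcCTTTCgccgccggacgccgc
Rps21 (chr2:180257319-180257398, strand +): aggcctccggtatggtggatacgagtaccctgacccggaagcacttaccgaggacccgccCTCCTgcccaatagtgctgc

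A C with at least 4 further pyrimidines from the first transcribed base on stood in 11 of 59 windows of these genes (18.6%), against 2.51% of all 32851 windows. Only a tract at exactly the annotated first base was counted. A start annotated some bases away counted as no tract, so the share does not say how many of these genes lack one. The letters CTTTCC on the strand of the gene stood in 37.3% of the windows of these genes and in 14.1% of all windows. On the opposite strand the shares were 15.3% and 14.4%. CCGGAAG, the core letters bound by ETS factors, stood on either strand in 39.0% of these windows against 8.86% of all, and TATAAA in 10.2% against 13.6%. CTTTCC is itself a run of pyrimidines and can be part of a tract, and a match describes the letters only.

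On each array the ribosomal protein genes lay close together, and the sign of their median followed the dye of HM-1. Their median log2 ratio was 0.01, 0.12 and 0.21 on nocodazole replicates 1, 2 and 3 and -0.06 on nocodazole replicate 4. On untreated replicates 1 and 2 it was 0.19 and 0.09, and on untreated replicates 3 and 4 it was -0.20 and -0.14. All 5 arrays with HM-1 in Cy5 thus had a positive median and all 3 arrays with HM-1 in Cy3 a negative one. The smallest value, on nocodazole replicate 1, was below the 0.02 of all features on that array. Over all features the medians lay between -0.01 and 0.02. Genes above 0 numbered 31, 45, 45 and 20 on nocodazole replicates 1 to 4 and 43, 44, 15 and 19 on untreated replicates 1 to 4, of 56 to 58 measured per array. As deposited, without centring, the medians of these genes kept these signs, at 0.12, 0.12, 0.31 and -0.08 on the nocodazole arrays and 0.29, 0.17, -0.37 and -0.13 on the untreated arrays. An offset per array, inferred from coded values, was also removed in an alternative chosen after seeing the data. Untreated replicates 1, 2 and 4 then had the other sign, at -0.089, -0.05 and 0.0925, where all features had -0.27, -0.15 and 0.23.

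**Figure D1:**
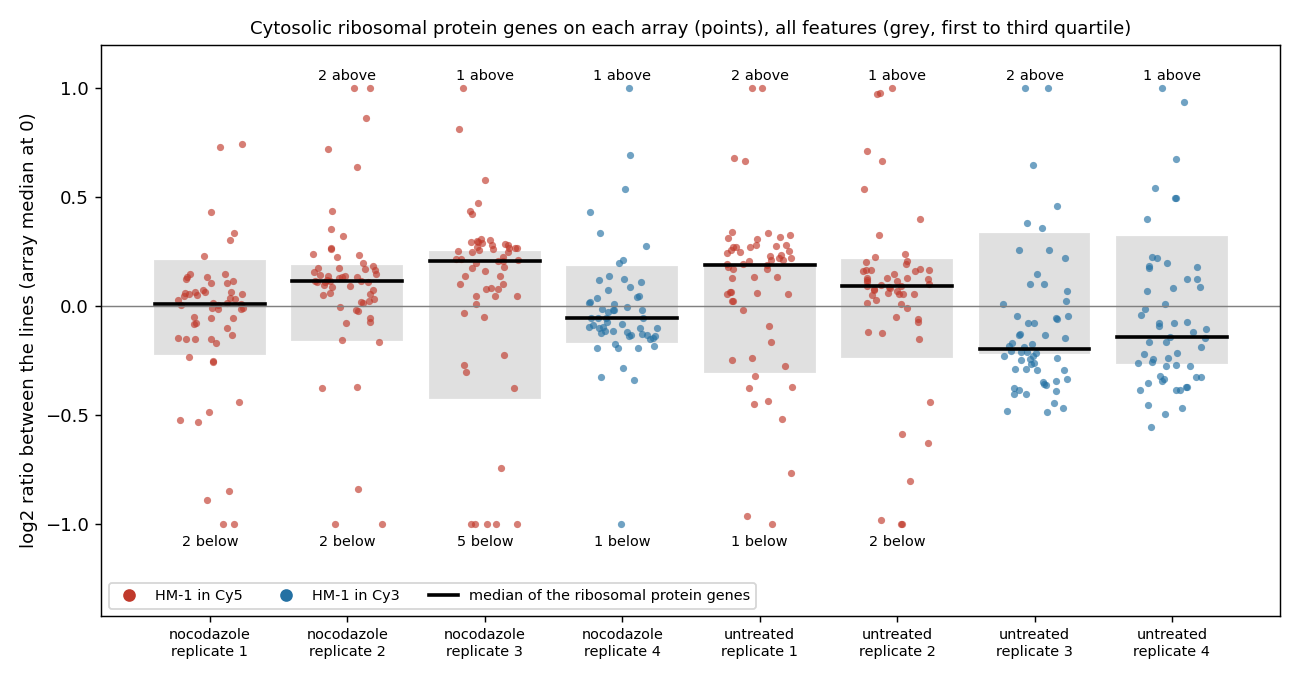
Log2 ratio between the lines (vertical axis) of each ribosomal protein gene on each array, red with HM-1 in Cy5 and blue with HM-1 in Cy3; black lines are their medians, grey boxes run between the quartiles of all features, and genes beyond 1 or -1 are drawn at the edge and counted there. The black lines lie between 0.01 and 0.21 on the red arrays and between -0.20 and -0.06 on the blue ones.

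The medians of the subunits had the same sign on 7 of the 8 arrays. The large subunit genes had medians of 0.02, 0.11, 0.18 and -0.09 on nocodazole replicates 1 to 4 and of 0.20, 0.11, -0.24 and -0.12 on untreated replicates 1 to 4. The small subunit genes had medians of -0.01, 0.13, 0.23 and -0.04 with nocodazole and of 0.10, 0.06, -0.10 and -0.21 untreated. On nocodazole replicate 1 the medians of the subunits had opposite signs, both within 0.1 of 0.

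The ribosomal protein genes varied less over the arrays than features in general. The median SD of a gene over the arrays was 0.24 for these genes and 0.42 for all features. An SD under 0.3 was found for 38 of 58 genes (65.5%), against 36.4% of all features, and an SD over 1 for 7 genes (12.1%), against 17.9%. Rpl27a, Rps10, Rpl30, Rps26 and Rplp1 had the smallest SDs, 0.10 to 0.13. A value is the mean of a gene's probes, and 24 of the 62 genes had several. Whether this averaging bears on the SDs was not tested. The spot brightness behind a ratio was not at hand. Of the values of the ribosomal protein probes 11.4% matched a quotient of whole numbers no larger than 10 within 0.0015, as spots of a few units of signal give, against 14.6% of the values of all probes, and 5.26% and 4.38% did so by coincidence when the offset was shifted.

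Of the 94 probes 42 had a value on all 8 arrays and no such whole-number ratio. Their medians were 0.06, 0.13, 0.24 and -0.07 on nocodazole replicates 1 to 4 and 0.21, 0.10, -0.21 and -0.15 on untreated replicates 1 to 4. The 6785 probes of the whole array that met the same rule had medians of 0.06, -0.01, 0.06 and -0.04 with nocodazole and of 0.05, 0.01, -0.08 and -0.09 untreated. On nocodazole replicate 1 the ribosomal protein probes thus stood at the level of all such probes, and on the other 7 arrays farther from 0.

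The component that follows the dye of HM-1 was fitted as its own term, positive where ratios were higher with HM-1 in Cy5. Its median was 0.11 over the ribosomal protein genes and -0.01 over all features, and 41 of 58 genes were positive, where 48.3% of all features were. No gene passed an adjusted p of 0.05 in limma (0% of all features), and the smallest adjusted p of a ribosomal protein gene was 0.433. An unadjusted p under 0.05 was reached by 15 of the 58 genes (25.9%), against 9.32% of all features. It was reached with a positive sign by 12 genes (20.7%, against 3.5% of all features) and with a negative sign by Rpl39, Rplp2 and Rps19bp1 (5.17%, against 5.82%). The large subunit had a median of 0.12 with 25 of 34 genes positive, and the small subunit 0.05 with 16 of 24. Without untreated replicate 3 the count of 15 genes was 5 (8.62%, against 6.88% of all features), without untreated replicate 1 it was 6 (10.3%, against 6.77%) and without untreated replicate 2 it was 9 (15.5%, against 8.13%). The median in these fits lay between 0.09 and 0.11.

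Among the 12 positive genes, Rps15, Rpl36a and Rpl23 are given here, picked after their values were seen, and Rpl4, with the highest component (0.62), is described below. Rps15, a protein of the small subunit head, had 0.14, 0.14, 0.27 and -0.18 on nocodazole replicates 1 to 4 and 0.21, 0.20, -0.23 and -0.21 on untreated replicates 1 to 4. Its arrays with HM-1 in Cy5 lay at 0.19 ± 0.05 (SD, n = 5) and those with HM-1 in Cy3 at -0.21 ± 0.02 (SD, n = 3), with no overlap. Rpl36a of the large subunit had 0.15, 0.23, 0.18 and -0.13 with nocodazole and 0.23, 0.15, -0.36 and -0.37 untreated. Its component was 0.23 ± 0.06 (SE, limma, unadjusted p = 0.00983). Rpl23, a large subunit protein that binds Mdm2 when free in human cells, had 0.02, 0.14, 0.31 and -0.19 with nocodazole and 0.25, 0.16, -0.26 and -0.38 untreated, again without overlap between the dyes. Its component was 0.22 ± 0.07 (SE, limma, unadjusted p = 0.0156). Rps21, with 5 probes, had the smallest unadjusted p among the ribosomal protein genes, 0.00831, with a component of 0.33 ± 0.09 (SE, limma).

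For 12 genes the value was above 0 on all arrays with HM-1 in Cy5 and below 0 on all arrays with HM-1 in Cy3, a pattern found in 2.04% of all features. These were Rpl7, Rpl8, Rpl19, Rpl23, Rpl24, Rpl27, Rpl35, Rpl36a and Rpl41 of the large subunit and Rps7, Rps15 and Rps20 of the small subunit. The opposite pattern was shown by Rpl39 alone, against 1.63% of all features. The lowest array with HM-1 in Cy5 lay above the highest with HM-1 in Cy3 for 19 genes (32.8%), against 6.96% of all features. No gene had the same sign on every array, against 0.935% of all features.

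**Figure D2:**
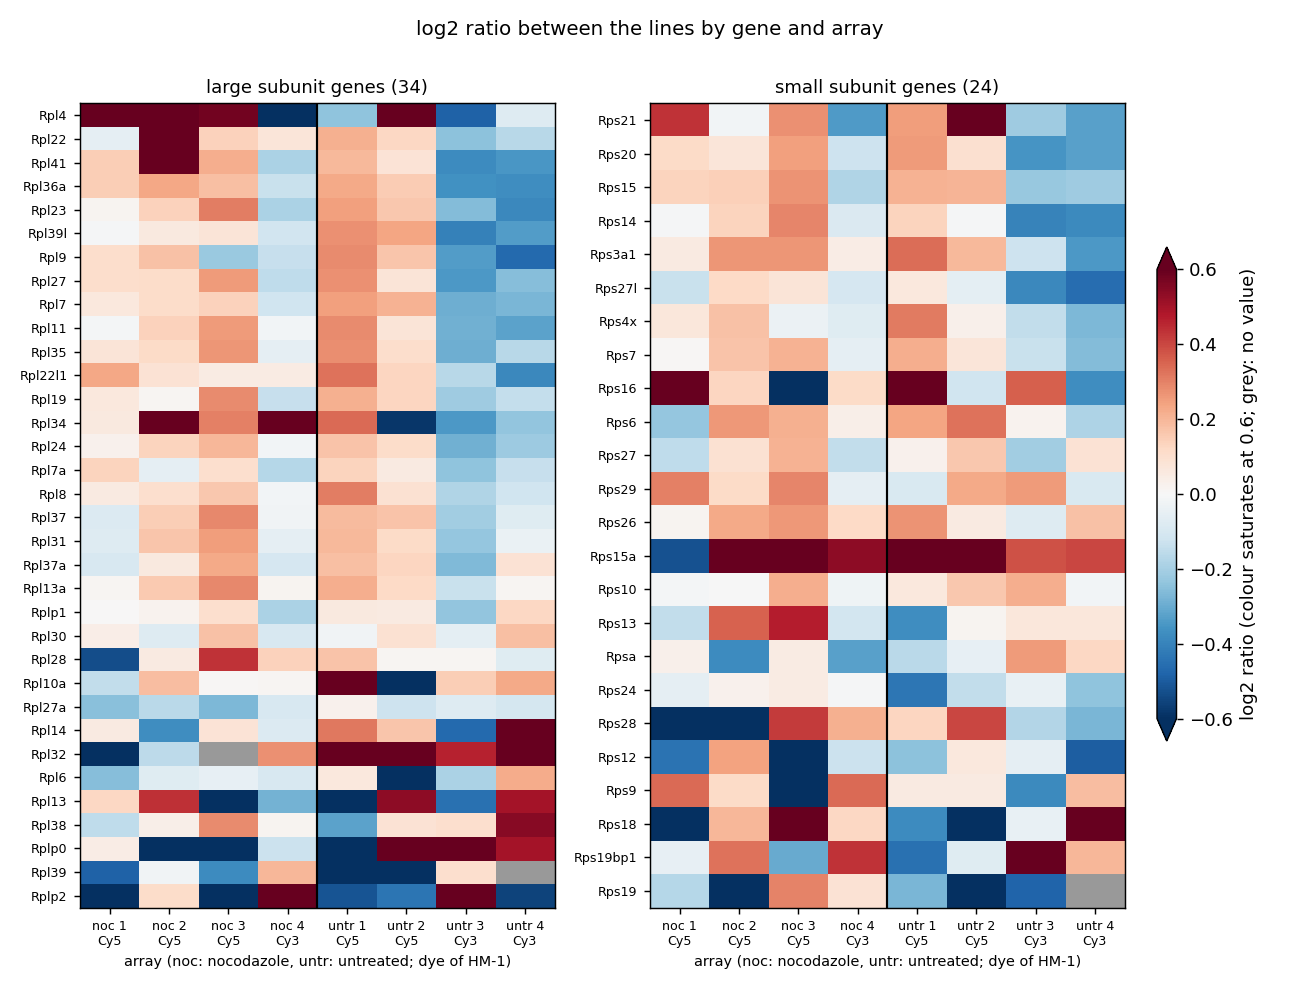
Log2 ratio between the lines (colour, saturating at 0.6 and -0.6, grey without a value) of the large and small subunit genes on the nocodazole arrays (left of the line) and the untreated arrays (right of it), ordered by the dye component. The upper rows are red with HM-1 in Cy5 and blue with HM-1 in Cy3, while Rps15a is red on 7 of 8 arrays.

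On the nocodazole arrays no ribosomal protein gene had a ratio between the lines past the threshold. The fitted ratio had a median of -0.0031 over the 58 genes and -0.0056 over all features, and 37 genes (63.8%) lay within 0.1 of 0, against 39.1% of all features; in the turned reading 24 genes (41.4%) did, against 34.9%. In limma 0 genes passed an adjusted p of 0.05 (0% of all features), and 0 reached an unadjusted p under 0.05, against 2.89% of all features. With array weights the unadjusted count was 1 (1.72%, against 3.32% of all features). Without nocodazole replicate 1, nocodazole replicate 4 or untreated replicate 4 it was 1 gene (1.72%, against 4.86%, 5.32% and 2.75% of all features). Among genes on all arrays the fitted ratio was highest for Rpl34 (0.96), Rplp2 (0.95), Rpl22 (0.50) and Rps15a (0.35) and lowest for Rps12 (-0.73), Rps28 (-0.59), Rplp0 (-0.50) and Rpl13 (-0.45). None of these differed from 0 beyond the spread between arrays. In the turned reading the median was 0.08, and Rpl4, Rplp2 and Rpl41 reached an unadjusted p under 0.05 (5.17%, against 5.11% of all features).

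In untreated cells the median ratio was -0.01 over the ribosomal protein genes and -0.0048 over all features, and 39 genes (67.2%) lay within 0.1 of 0, against 38.2% of all features; in the turned reading 15 genes (25.9%) did, against 32.6%. In limma 0 genes passed an adjusted p of 0.05 (0% of all features), with 0.704 as the smallest. Rpl39, Rpl32 and Rps15a reached an unadjusted p under 0.05, 5.17% against 6.34% of all features. Among genes on all arrays the fitted ratio was highest for Rplp0 (0.72), Rps15a (0.54), Rpl14 (0.28) and Rps16 (0.25) and lowest for Rps24 (-0.22), Rps27l (-0.21), Rpl34 (-0.21) and Rps12 (-0.18). In the turned reading the median was 0.14, and 14 genes (24.1%) reached an unadjusted p under 0.05, against 10.6% of all features. Of these 13 were positive (22.4%, against 3.41% of all features), led by Rpl39l (0.31, limma, unadjusted p = 0.00559, adjusted p = 0.282), and Rpl39 was negative.

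Over both conditions the ratio between the lines had a median of -0.01, as all features did, and 35 genes (60.3%) lay within 0.1 of 0, against 44.1% of all features; in the turned reading 19 genes (32.8%) did, against 38.4%. In limma 0 genes passed an adjusted p of 0.05 (0% of all features), with 0.897 as the smallest. Rps15a alone reached an unadjusted p under 0.05 (1.72%, against 5.53% of all features). Leaving out any of nocodazole replicates 2, 3 and 4 or untreated replicates 1 and 2 left 0 genes, against 4.0% to 6.13% of all features. Leaving out nocodazole replicate 1 gave 2 genes (3.45%, against 7.08% of all features). In the turned reading the median was 0.10, and 20 genes (34.5%) reached an unadjusted p under 0.05, against 10.6% of all features. The lowest of these p values was that of Rpl4 (0.62, limma, unadjusted p = 0.00604, adjusted p = 0.320), and 17 of the 20 were positive (29.3%, against 4.06% of all features).

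**Figure D3:**
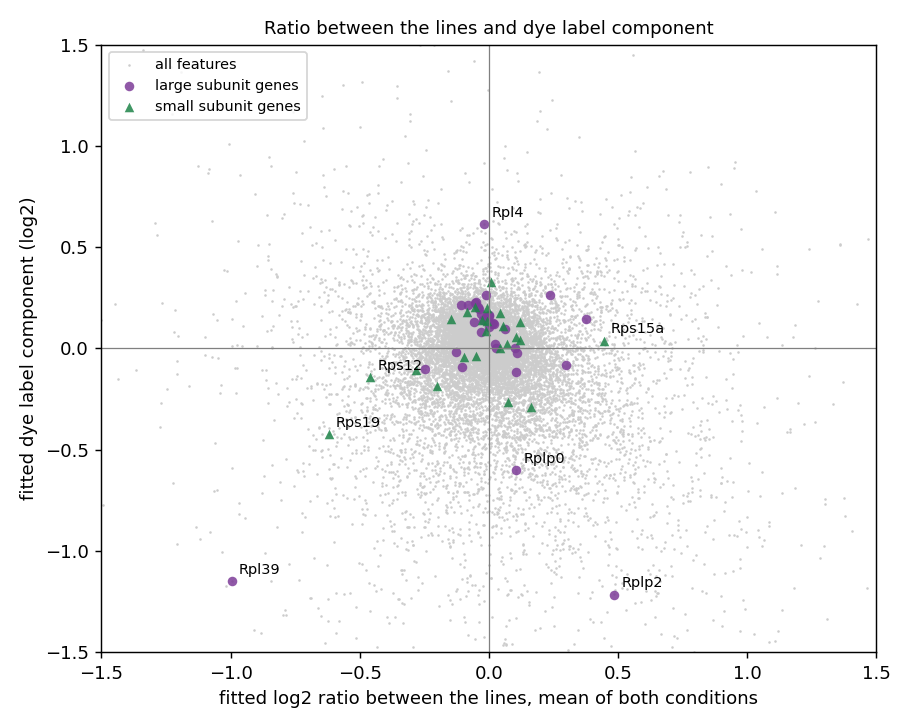
Fitted log2 ratio between the lines over both conditions (horizontal axis) and fitted dye component (vertical axis, log2) of each large subunit gene (purple circles), small subunit gene (green triangles) and all features (grey points, 135 beyond 1.5 not drawn). Most ribosomal protein genes lie near 0 on the horizontal axis and above 0 on the vertical one, and Rpl39 and Rplp2 lie below -1.1 on it.

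The sign of the change of the ratio with nocodazole depended on the reading and on single arrays. Nocodazole minus untreated was positive for 29 of 58 genes (49.7% of all features). It was positive for 18 in the turned reading, 18 without nocodazole replicate 4, 38 without untreated replicate 1 and 37 without the dye term. The share of positive features in those fits was not counted. Their medians were, in the same order, -0.06, -0.04, 0.04 and 0.06 over these genes. Over all features they were -0.0026, 0.00028, -0.0057 and -0.0018. Without these changes nocodazole minus untreated had a median of -0.00053 over these genes and -0.0018 over all features. In 32 genes (55.2%) it lay within 0.1 of 0, against 30.2% of all features. In limma 0 genes passed an adjusted p of 0.05 (0% of all features), with 0.996 as the smallest, and Rpl39 and Rpl32 reached an unadjusted p under 0.05 (3.45%, against 3.32% of all features). Without nocodazole replicate 1, untreated replicate 1 or untreated replicate 4 this was 1 gene (1.72%, against 3.31%, 4.21% and 3.58% of all features). In the turned reading the median was -0.06 and 1 gene reached an unadjusted p under 0.05 (1.72%, against 4.89% of all features). Only Rpl32 had nocodazole and untreated arrays that did not overlap (1.72%, against 2.7% of all features). Among genes on all arrays the change was highest for Rpl34 (1.17), Rplp2 (0.93), Rpl22 (0.51) and Rps18 (0.51) and lowest for Rplp0 (-1.22), Rps28 (-0.61), Rps12 (-0.55) and Rpl13 (-0.41).

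Rpl39 is a small protein that lines the tunnel through which the new chain leaves the ribosome. Its single probe had -0.49, -0.02, -0.38 and 0.20 on nocodazole replicates 1 to 4 and -4.26, -4.18 and 0.10 on untreated replicates 1 to 3, with no value on untreated replicate 4. Both very low values stood on untreated arrays with HM-1 in Cy5, and the third untreated array lay among the nocodazole arrays. The fitted ratio was 0.40 ± 0.54 with nocodazole and -2.39 ± 0.59 untreated (SE; untreated, limma, unadjusted p = 0.00761, adjusted p = 0.704), a change of 2.80 ± 0.76 (SE, limma, unadjusted p = 0.0116, adjusted p = 0.996). The paralog Rpl39l, known mainly from testis, did not share this pattern, with -0.01, 0.06, 0.08 and -0.12 with nocodazole and 0.27, 0.24, -0.40 and -0.33 untreated. Rpl4, another protein that reaches into the tunnel, had 0.74, 0.87, 0.58 and -1.28 with nocodazole and -0.24, 0.98, -0.48 and -0.08 untreated. Of its 3 probes the one without whole-number ratios stayed between -0.30 and 0.28 on all arrays, while the other probes reached -2.05 and 1.95.

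Rpl32, a large subunit protein, had -0.89, -0.16 and 0.27 on nocodazole replicates 1, 2 and 4 and 0.67, 1.26, 0.46 and 0.94 on untreated replicates 1 to 4. All untreated arrays lay above all nocodazole arrays. The change was -1.06 ± 0.35 (SE, limma, unadjusted p = 0.0261, adjusted p = 0.996). Of its 2 probes, one had a value on 4 arrays, and the other had 4 whole-number ratios among 7 values. On untreated replicate 3, where both had a value, the probes stood at -2.18 and 3.11.

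Rps15a, a small subunit protein, had -0.52, 0.64, 0.81 and 0.54 on nocodazole replicates 1 to 4 and 0.68, 0.71, 0.38 and 0.40 on untreated replicates 1 to 4. Its ratio was positive on 7 of 8 arrays, with either dye, and negative on nocodazole replicate 1. The fitted ratio over both conditions was 0.44 ± 0.16 (SE, limma, unadjusted p = 0.0324, adjusted p = 0.897). In the turned reading it was 0.0025. It had 1 probe, with 1 whole-number ratio among 8 values.

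The stalk proteins Rplp0, Rplp1 and Rplp2 recruit the GTPases of translation to the large subunit. They differed widely in spread. Rplp1 had 0.00, 0.02, 0.10 and -0.19 with nocodazole and 0.06, 0.05, -0.24 and 0.13 untreated. Rplp0, which anchors the stalk to ribosomal RNA, had 0.05, -2.08, -1.05 and -0.13 with nocodazole and -0.96, 0.97, 2.36 and 0.50 untreated. The groups overlapped, and its change of -1.22 ± 0.71 (SE, limma, unadjusted p = 0.131, adjusted p = 0.996) was within the spread between arrays. Rplp2 had -0.85, 0.11, -1.49 and 3.60 with nocodazole and -0.52, -0.44, 1.60 and -0.56 untreated, and 5 of its 8 values were whole-number ratios. Its highest values stood on arrays with HM-1 in Cy3, so that its dye component was -1.21 ± 0.43 (SE, limma, unadjusted p = 0.0276).

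**Figure D4:**
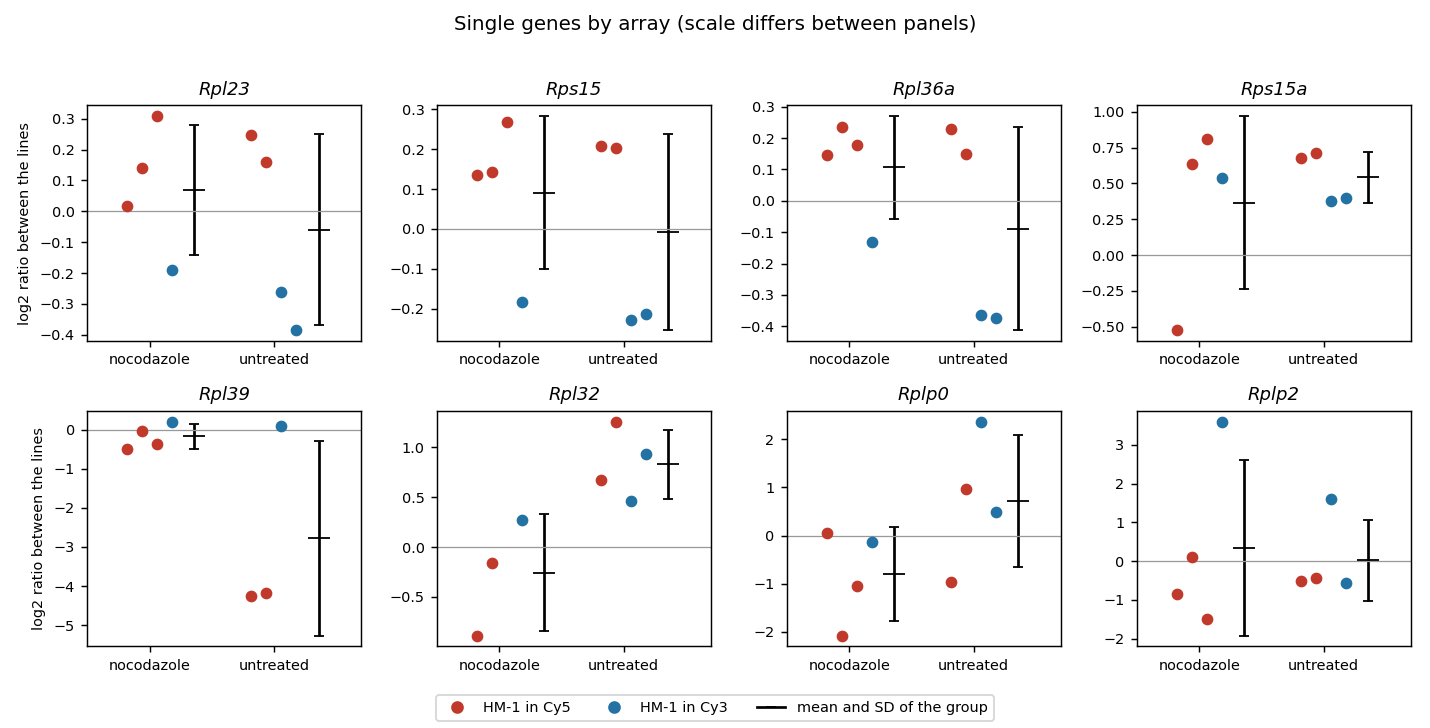
Log2 ratio between the lines (vertical axis, its own scale in each panel) of 8 ribosomal protein genes on the nocodazole arrays (left) and the untreated arrays (right), red with HM-1 in Cy5 and blue with HM-1 in Cy3; black marks give the mean and SD of each group. Rpl23, Rps15 and Rpl36a split by dye within 0.4 of 0, while Rpl39, Rplp0 and Rplp2 span more than 3 units.

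Several large subunit proteins have roles outside or beside the ribosome. Rpl11, which binds 5S ribosomal RNA with Rpl5 and inhibits Mdm2 when free, had -0.01, 0.14, 0.26 and -0.02 with nocodazole and 0.28, 0.08, -0.29 and -0.32 untreated. Rpl22, an RNA-binding protein of the ribosome surface, had -0.06, 2.36, 0.14 and 0.07 with nocodazole and 0.21, 0.12, -0.25 and -0.17 untreated. Its paralog Rpl22l1 stayed between 0.05 and 0.23 with nocodazole and between -0.39 and 0.33 untreated. The groups of these 3 genes overlapped. The value of Rpl22 on nocodazole replicate 2 is the mean of 4.53 and 0.19 on its 2 probes. Rpl38, needed in mouse embryos for translation of Hox messenger RNAs, had -0.15, 0.03, 0.28 and 0.02 with nocodazole and -0.32, 0.09, 0.10 and 0.54 untreated. Rpl10a ranged from -0.15 to 0.18 with nocodazole and from -0.80 to 1.18 untreated. For both, the untreated arrays spanned the nocodazole arrays.

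Of the small subunit proteins with known regulatory roles, Rps6, the target of the S6 kinases, had -0.23, 0.26, 0.21 and 0.04 with nocodazole and 0.24, 0.33, 0.02 and -0.19 untreated. Its ratio over both conditions was 0.06 ± 0.09 (SE). Rpsa, also known as a laminin receptor precursor, had 0.03, -0.38, 0.05 and -0.33 with nocodazole and -0.16, -0.05, 0.26 and 0.13 untreated. Rps4x, encoded on the X chromosome, had a component along the dye of 0.14 ± 0.07 (SE, limma, unadjusted p = 0.102). The groups of these 3 genes overlapped.

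Rps19, which is mutated in Diamond-Blackfan anaemia, had -0.17, -0.84, 0.30 and 0.09 with nocodazole and -0.27, -3.55 and -0.48 on untreated replicates 1 to 3. Its value on untreated replicate 4 was a coded division by 0 and was left out. Its low untreated mean rested on untreated replicate 2. Its binding protein Rps19bp1 is no part of the ribosome and had -0.05, 0.32, -0.30 and 0.43 with nocodazole and -0.45, -0.07, 0.65 and 0.20 untreated. Its dye component was -0.29 ± 0.11 (SE, limma, unadjusted p = 0.0344), opposite in sign to the median of the group. Rps27l, a paralog of Rps27 induced by p53, ranged from -0.13 to 0.12 with nocodazole and from -0.46 to 0.06 untreated.

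The means of a gene's probes, each over the arrays on which that probe had a value, lay farthest apart for Rpl34, Rps12, Rps28 and Rps21. By the largest gap on 1 array, Rps9 (5.86), Rpl34 (5.78), Rps12 (5.68) and Rpl32 (5.29) came first. The means of the Rpl34 probes lay at 0.03 and 1.65, and the higher one came from 4 arrays with values of -1.27 to 5.96. For Rps12 they were -1.15 and -0.01, the lower one set by a value of -5.73 on nocodazole replicate 3. One Rps28 probe had -3.63 and -3.15 on nocodazole replicates 1 and 2, where the other had 0.16 and 0.22. Of the 5 Rps21 probes, 4 had values on all 8 arrays between -0.59 and 0.48, and the fifth reached 3.15. The fitted ratios of Rpl34, Rps12 and Rps28 with nocodazole thus hold values beyond 1 or -1 from 1 of 2 probes each.

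The dye component had a median of 0.11 over the 58 cytosolic ribosomal protein genes but 0.05 over the 24 of the small subunit. It had a median of 0.06 over 56 mitochondrial ribosomal proteins (34 positive, 9 at an unadjusted p under 0.05) and 0.06 over 38 translation initiation and elongation factors (25 positive, 6 at an unadjusted p under 0.05), where 48.3% of all features were positive and 9.32% reached that p. Over 61 ribosome biogenesis genes it was -0.0026, with 29 positive and 5 at an unadjusted p under 0.05. Outside translation it was 0.10 over 11 embryonic stem cell markers (8 positive) and 0.07 over 12 genes of the p53 response (9 positive). On untreated replicates 3 and 4 the medians of the 4 lists of ribosome and translation genes were negative. They were -0.20 and -0.14 for the cytosolic ribosomal proteins, -0.12 and -0.12 for the mitochondrial ones, -0.13 and -0.15 for the translation factors and -0.08 and -0.12 for biogenesis. With HM-1 in Cy5 the order varied. On nocodazole replicate 1 the cytosolic ribosomal proteins stood lowest, at 0.01, against 0.12 for the mitochondrial ones, 0.11 for the translation factors and 0.03 for biogenesis. On nocodazole replicates 2 and 3 they stood at 0.12 and 0.21 and the other 3 lists between -0.03 and 0.03. On untreated replicate 1 they stood at 0.19, against 0.02 for the mitochondrial ones, 0.09 for the translation factors and 0.09 for biogenesis, and on untreated replicate 2 at 0.09, against -0.05 to -0.02. The difference between the lists was not tested.

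**Figure D5:**
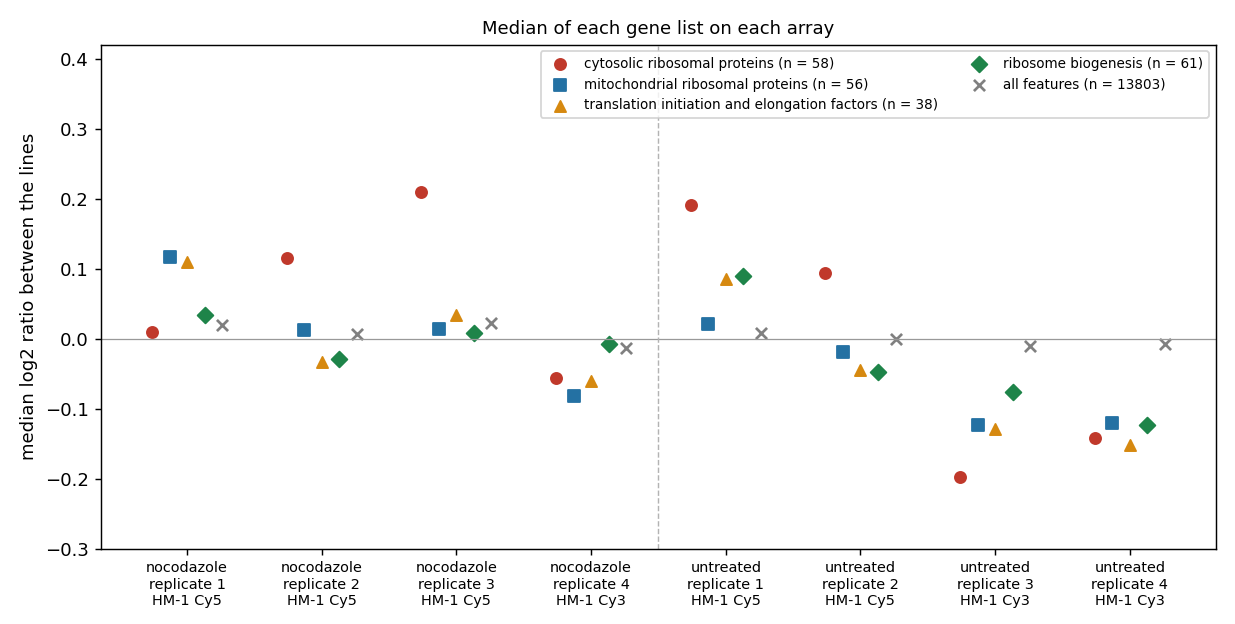
Median log2 ratio between the lines (vertical axis) of 4 gene lists and of all features on each array, nocodazole arrays left of the dashed line and untreated arrays right of it. The red circles of the cytosolic ribosomal proteins are highest on nocodazole replicates 2 and 3 and untreated replicates 1 and 2. They are lowest on nocodazole replicate 1 and untreated replicate 3.

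No gene of the other lists passed an adjusted p of 0.05 in limma in any comparison. For nocodazole minus untreated an unadjusted p under 0.05 was reached by 1 of 61 ribosome biogenesis genes (Heatr1, 0.97), 2 of 56 mitochondrial ribosomal proteins (Mrpl21, 0.62, and Mrpl10, 0.35) and 2 of 38 translation factors (Eif2b5, 0.39, and Eif4g2, -0.99), where 3.32% of all features reached it. Among 15 fusion genes and ribosome-bound factors it was reached by Btf3, a subunit of the nascent chain complex, at -1.47. None of 17 regulators of ribosomal protein synthesis and none of 12 genes of the p53 response reached it. Over both conditions 5.53% of all features reached an unadjusted p under 0.05. So did 4 of 61 biogenesis genes, 5 of 56 mitochondrial ribosomal proteins, 3 of 38 translation factors and 1 of 15 fusion genes and ribosome-bound factors. Among the regulators it was 1 of 17 and in the p53 list 1 of 12. The regulator was Larp1, the protein that binds the pyrimidine tract, with 0.39 ± 0.15 (SE, limma, unadjusted p = 0.0341, adjusted p = 0.897). Gadd45a of the p53 list had -0.28. Both measured genes of the Rps6k group that the rule leaves out, the S6 kinase Rps6kb2 and the kinase-like Rps6kl1, had a negative dye component, -0.81 and -0.29 (limma, unadjusted p = 0.0326 and 0.0351).

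The median of 18 of 27 listed endoderm markers was 0.59 on nocodazole replicate 1 and between -0.65 and -0.14 on the other 7 arrays. The median of 27 of 30 fibroblast markers lay between -0.27 and 0.02 on the nocodazole arrays and between -0.15 and -0.06 on the untreated arrays. For 11 of 26 embryonic stem cell markers it lay between -0.05 and 0.08 with nocodazole and between -0.03 and 0.27 untreated. On nocodazole replicate 1, 13 endoderm markers were positive and 5 negative, while 2 to 8 were positive on each other array. Among markers picked after their values were seen, Ctsh had 0.69 there and -0.81 to -0.54 on the other arrays. Dab2 had 1.28 there and -1.22 to -0.82 on the others. Whether the ratio on this array runs in the same direction as on the others was not tested. Nocodazole replicate 1 was also the array on which the ribosomal protein median was nearest to 0. Whether the cell types present bear on the ribosomal protein values was not tested.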

How the data were processed

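Ratios between HM-1 and R1 were measured on 8 arrays. The deposited table gives log2 ratios, 1 per probe and array. On each array the coded values lay at 1 distance from the log2 of 100000, with its sign. That distance was read as 1 added offset per array, which no source states. The authors' scanner software, their background correction and any normalization were not given in the sources used here. Codes for division by 0 (absolute log2 above 10) were set to missing. Symbols came from the platform annotation (14030 of 20355 probes with 1 symbol; 13994 gene IDs matched RefSeq). Probes of one symbol were averaged, and arrays centred on their median. Between 17928 and 19445 probes had a value per array. The number of arrays limits the precision.

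The test was limma 3.58.1 (R 4.3.3, statmod 1.5.0): lmFit and eBayes on 14015 features with values on at least 3 arrays of each group, a coefficient per group, and a dye term (HM-1 in Cy5 against Cy3). P-values are two-sided, with Benjamini-Hochberg adjustment over all features and a threshold of 0.05. The script was tested on simulated data. Separate cultures are not stated, so the p-values reflect the spread of these arrays alone and it may be technical. No more than 0.148% of values were equal between 2 arrays. Per the labels the dyes are swapped on 37.5% of arrays; an even swap is stated in the design text.

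Named genes are those with the 4 highest and 4 lowest fitted values in each comparison among genes on all arrays, those at an unadjusted p under 0.05 in the first 4 comparisons, those fixed for known roles, the 4 whose probes differ most, and genes that are no structural protein; of other lists, at most the 3 with the smallest p. Genes shown for the dye component (Rps15, Rpl36a, Rpl23) and those shown for both S6 kinases were chosen after their values were seen. Members and lists were chosen with earlier results of these data known. Alternatives changed the direction, dye term, coded values, centring, scale, filter, probes, weights, block and arrays.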

Additional observations from a re-analysis of the deposited data

Results flagged for a closer look

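Dixon's criterion was read on 57 groups of 4 values, each a named gene or the median of the ribosomal protein genes in 1 condition. In 4 groups the highest or lowest array stood apart from the others. About 2.85 would be expected of groups picked without regard to their values. Many of these genes were named for extreme values in these same data, so 2.85 is no valid expectation for them. Rpl22 had 2.36 on nocodazole replicate 2, against -0.06 to 0.14 on the other nocodazole arrays. It is the mean of 2 probes, at 4.53 and 0.19. Rpl4 had -1.28 on nocodazole replicate 4, against 0.58 to 0.87 on the others. Rps9, of the small subunit, had -2.68 on nocodazole replicate 3, against 0.12 to 0.34, and its probes there stood at -5.61 and 0.25. Rplp2 had 1.60 on untreated replicate 3, against -0.56 to -0.44 on the other untreated arrays.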

How the results depend on the processing

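No ribosomal protein gene passed an adjusted p of 0.05 in any comparison under any alternative run. Of all features, 1 passed for the ratio with nocodazole with values on all 8 arrays, and 1 for the dye component with array weights. Counts of ribosomal protein genes at an unadjusted p under 0.05 moved, and the cause was not tested. Shares below are of the ribosomal protein genes, against those of all features. For the ratio with nocodazole (0) the counts were 3 in the turned reading (5.17%, against 5.11%) and 1 with array weights (1.72%, against 3.32%). They were 2 with the replicate block (3.51%, against 4.47%) and 0 to 1 leaving out 1 array (at most 1.72%, against 2.72% to 5.32%). For the untreated ratio (3) they were 14 turned (24.1%, against 10.6%), 5 with array weights (8.62%, against 8.99%) and 1 with the replicate block (1.75%, against 7.62%). For both conditions (1) they were 20 turned (34.5%, against 10.6%) and 2 without the dye term (3.45%, against 4.31%). They were also 2 without centring (3.45%, against 4.84%) and with the replicate block (3.51%, against 6.28%). With each probe on its own they were 2 of 84 probes (2.38%, against 5.8%), and leaving out 1 array 0 to 2 (at most 3.45%, against 4.0% to 7.08%). For nocodazole minus untreated (2) they were 1 turned (1.72%, against 4.89%) and 1 with the replicate block (1.75%, against 4.03%). With values on all 8 arrays, which leaves out Rpl39 and Rpl32, they were 0 (against 2.93%). Leaving out 1 array gave 1 to 2 (1.72% to 3.45%, against 3.31% to 4.72%). For the dye component (15) they were 24 without centring and with the trimmed mean (41.4% each, against at most 11.6%). With each probe on its own they were 24 of 84 probes (28.6%, against 9.31%). Leaving out 1 array gave 5 to 13 (8.62% to 22.4%, against 6.77% to 9.96%). They were 4 with the replicate block (7.02%, against 14.4%). With the offset removed and no centring (added after seeing the data) they were 1 (1.72%, against 5.44%). With the block and with the offset removed, the share thus lay below that of all features. The median component there was 0.18 and 0.10, against -0.01 and -0.02 over all features. The replicate block was kept to this place, since same-numbered arrays did not deviate together (r across features of their deviations from the group means = 0.13, 0.02, -0.05 and 0.09 for replicates 1 to 4). The median per array with the offset removed was 0.18, 0.44 and -0.33 on nocodazole replicates 1, 3 and 4. It was -0.089, -0.05 and 0.0925 on untreated replicates 1, 2 and 4, so the signs on these 3 untreated arrays changed. All features there had -0.27, -0.15 and 0.23. Relative to all features these genes thus stayed higher on untreated replicates 1 and 2 and lower on untreated replicate 4. The median of these genes was 0.36 on nocodazole replicate 3 with the trimmed mean, and 0.20 and 0.14 on untreated replicates 3 and 4 turned. No dim-spot filter could be set, since signal over background was not at hand.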
